A study of Mus musculus with 8 samples.

Results

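Skeletal muscle breaks down amino acids and hands on their nitrogen through a small set of enzymes. The 10 genes described here belong to this set or regulate it: Bcat2, Bckdha, Bckdhb, Dbt, Bckdk, Gpt2, Glul, Got1, Got2 and Glud1. They were listed by name, and each was read from a probe set annotated to that gene alone. Of the 10 genes, 9 had such a probe set, 1 each, among 14860 genes and 16755 probe sets on the array. Got2, the mitochondrial aspartate aminotransferase, was not matched to a probe set of its own and is not analysed here.

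The samples were tibialis anterior muscles of male C57BL/6 mice aged 8 weeks, fed when RNA was taken. Each left muscle received 25 µg of pcDNA3, a plasmid without insert, by electroporation and served as control, and each right muscle received 25 µg of pCMV-ATF4-FLAG, which encodes mouse ATF4 with a FLAG tag behind a viral promoter. Both were harvested on day 11, in 4 experiments that gave 1 exon array per group each, 8 arrays in all. ATF4 is a transcription factor of the stress response to amino acid shortage. All ATF4 arrays came from the right leg and all control arrays from the left, so leg and plasmid cannot be told apart, and the labels leave unsaid how many mice each experiment drew on. The share of fibres that took up plasmid is not given in these sources.

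Branched-chain amino acids are unusual in that muscle, rather than liver, carries out the first step of their breakdown. BCAT2 in the mitochondrion moves their amino group onto ketoglutarate to make glutamate, and the branched-chain ketoacid dehydrogenase, built from the E1 subunits BCKDHA and BCKDHB, the E2 core DBT and the E3 subunit DLD, then commits the carbon skeleton to oxidation. The kinase BCKDK switches this complex off and the phosphatase PPM1K switches it on. Glutamate passes its nitrogen to pyruvate through GPT2 to give alanine or to oxaloacetate through GOT1 and GOT2 to give aspartate, while GLUL adds ammonia to glutamate to give glutamine and GLUD1 releases ammonia from glutamate. Alanine and glutamine carry nitrogen from muscle to liver, gut and kidney.

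All values are log2 levels made by the authors with RMA, a method that corrects background, normalizes arrays to each other and combines the probes of a probe set. Differences are ATF4 minus empty vector within an experiment, with n = 4 pairs, and were tested in limma over all 16755 probe sets with Benjamini-Hochberg adjustment. Array medians lay between 4.29 and 4.44, and arrays correlated with r from 0.916 to 0.981 across probe sets. The transfected gene, Atf4, stood at 6.42, 6.24, 6.48 and 6.23 with empty vector and at 6.66, 6.56, 6.72 and 6.18 with ATF4. It was above its control in experiments 1 to 3, by 0.24, 0.31 and 0.24, but not in experiment 4, at -0.05. In experiment 4 the brightest probe sets, among which Atf4 lies, had a median difference of -0.25. The established ATF4 targets described below had a median of 0.34 there, with 5 of 17 below 0. The dimmest probe sets had a median difference of 0.22 in that experiment, so the target median is mixed with a shift by brightness. The 4 brightest targets, Slc38a2, Ddit3, Chac1 and Atf5, were all below 0. Slc7a5, Fgf21 and Mthfd2, next in level, were above 0, at 0.87, 0.36 and 0.57. The part of the brightness shift in the target median was not tested. A link between the Atf4 value of experiment 4 and the enzymes was not tested. The mean difference of Atf4, 0.18 (SE 0.11, adjusted p = 0.846), did not pass and was 0.26 without experiment 4. No source at hand says which part of the transcript its probes read. The probe set therefore does not settle the plasmid labels, and arrays called ATF4 here are those so labelled. Muscle fibre markers were at high signal on every array, with list means of 9.73 to 9.88 in control muscles and 9.69 to 9.90 in ATF4 muscles. Levels on an array depend on the probes, so no gene's level is ranked against another's.

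Promoter windows are shown because ATF4 is known to bind, together with a C/EBP partner, a composite element written TGATGNAA, and Asns (asparagine synthetase) is the textbook gene that carries one. The windows are RefSeq sequences of GRCm38.p6 from 250 bases before to 50 bases after an annotated start, 5′ to 3′ in the direction of the gene, with matches to TGATGNAA on either strand in capitals. Got1 is printed as the only listed enzyme with a match, and Gpt2 as an alanine-making enzyme without one.
Asns (chr6:7693160-7693459, minus strand): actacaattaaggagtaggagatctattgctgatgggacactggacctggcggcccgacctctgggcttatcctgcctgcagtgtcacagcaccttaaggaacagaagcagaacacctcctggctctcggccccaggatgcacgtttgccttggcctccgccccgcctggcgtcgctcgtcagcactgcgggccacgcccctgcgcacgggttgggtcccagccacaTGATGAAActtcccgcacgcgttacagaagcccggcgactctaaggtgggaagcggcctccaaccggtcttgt
Got1 (chr19:43524556-43524855, minus strand): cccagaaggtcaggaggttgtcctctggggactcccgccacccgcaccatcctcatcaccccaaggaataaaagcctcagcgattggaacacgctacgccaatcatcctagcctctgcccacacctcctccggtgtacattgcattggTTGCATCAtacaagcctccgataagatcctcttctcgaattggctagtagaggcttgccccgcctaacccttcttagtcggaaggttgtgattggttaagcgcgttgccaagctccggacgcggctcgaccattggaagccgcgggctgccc
Gpt2 (chr8:85492326-85492625, plus strand): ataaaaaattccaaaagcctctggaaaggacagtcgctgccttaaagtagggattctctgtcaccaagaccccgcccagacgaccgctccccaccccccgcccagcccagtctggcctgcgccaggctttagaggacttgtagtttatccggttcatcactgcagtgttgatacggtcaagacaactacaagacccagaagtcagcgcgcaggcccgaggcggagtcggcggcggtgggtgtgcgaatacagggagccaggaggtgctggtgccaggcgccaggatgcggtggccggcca

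Asns holds the letters on the strand printed, beginning at position -23 from the start, and Got1 holds them on the opposite strand, beginning at position -102. Windows were found for 9 of the 10 genes, all but Dbt, and 11 windows in all, because Bcat2 and Bckdhb have 2 annotated starts each. Of these 11 windows 1 held TGATGNAA, against 3.97% of all 32851 windows, searched on both strands. The cAMP response element TGACGTCA, also searched on both strands, was in 0 of the 11 windows and in 1.79% of all windows. A match of letters is a description of the window and not a bound site, and a window without one says nothing of sites elsewhere.

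None of the 9 measured enzymes changed past the threshold in the ATF4 muscles. By limma with an adjusted p under 0.05, 0 of 9 were called higher, where 0.0179% of all probe sets were, and 0 of 9 were called lower, where 0% were. At an unadjusted p under 0.05, 1 enzyme was lower (Glud1), against 2.77% of all probe sets, and 0 were higher. Among the 4189 brightest probe sets, which hold 7 of the 9 enzymes, 230 were lower at that p. The 9 mean differences were nevertheless all below 0, from -0.38 for Glud1 to -0.04 for Bckdhb, with a median of -0.18. Over all probe sets 45.5% of differences were below 0 and the median was 0.02. In no enzyme were the groups free of overlap. Of all probe sets 0.752% had every ATF4 array below every control array, and 1.41% had every ATF4 array above. The genes were measured on the same arrays, so their shared sign is not 9 independent observations. In whole muscle, fewer cells of a type and less RNA per cell cannot be told apart.

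**Figure D1:**
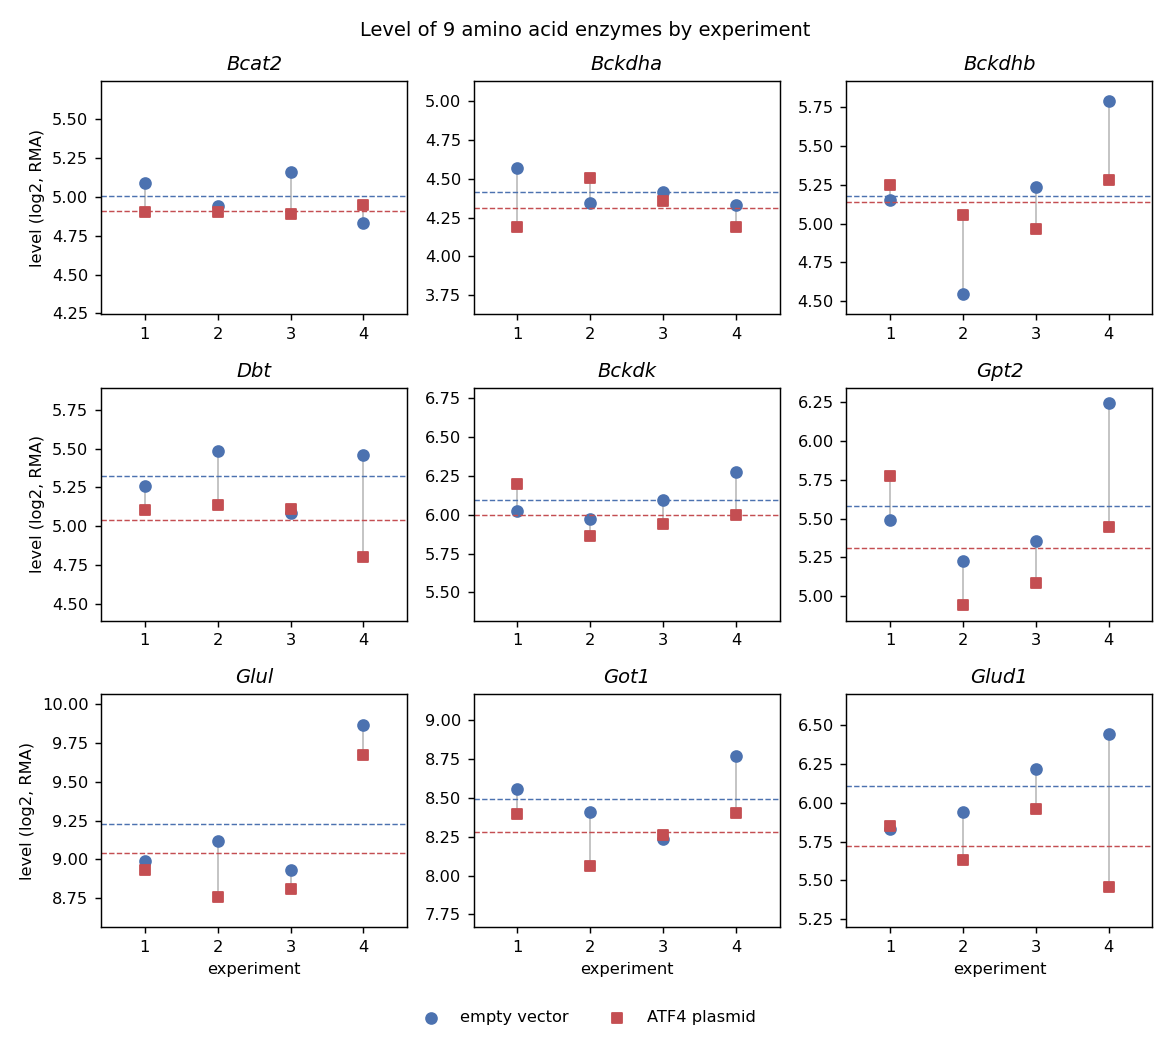
Level (log2, RMA) of the 9 measured enzymes in experiments 1 to 4, with empty vector as blue circles, ATF4 plasmid as red squares, a grey line joining each pair and dashed lines at the group means; every panel spans the same range of log2 units. Control and ATF4 points overlap in every panel, and Glul stands higher in both arrays of experiment 4 than in all others.

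Bcat2, which starts branched-chain breakdown, did not pass, and its sign was not shared by all experiments. It stood at 5.09, 4.94, 5.16 and 4.83 with empty vector and at 4.91, 4.91, 4.89 and 4.95 with ATF4 in experiments 1 to 4. The ATF4 arrays lay close together, inside the span of the control arrays, with an SD of 0.02 against 0.15. The difference was -0.09 (SE 0.12, adjusted p = 0.913), and it was positive in experiment 4 only. It was -0.03 without experiment 3 and -0.16 without experiment 4.

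The subunits of the ketoacid dehydrogenase had mean differences from -0.28 to -0.04, and none passed. Dbt, the E2 core that carries the lipoyl group, stood at 5.26, 5.48, 5.09 and 5.46 with empty vector and at 5.11, 5.14, 5.11 and 4.80 with ATF4. Its difference of -0.28 (SE 0.14, adjusted p = 0.846) was made up of -0.15, -0.35, 0.02 and -0.66, so experiment 3 showed none of it and experiment 4 the most. Without experiment 4 the Dbt difference was -0.16.

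Bckdha, the E1 alpha subunit that the kinase phosphorylates, stood at 4.57, 4.34, 4.41 and 4.33 with empty vector and at 4.19, 4.50, 4.36 and 4.19 with ATF4. The groups overlapped, with ATF4 above its control in experiment 2 only. The difference was -0.10 (SE 0.13, adjusted p = 0.913), and it ran from -0.012 without experiment 1 to -0.19 without experiment 2.

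Bckdhb, the E1 beta subunit, had the widest spread of the 9 among control muscles. It stood at 5.15, 4.55, 5.23 and 5.79 with empty vector, a wider spread (SD 0.51) than at 5.25, 5.06, 4.97 and 5.28 with ATF4 (SD 0.15). The differences were 0.10, 0.51, -0.26 and -0.51, up in 2 experiments and down in the other 2. The mean difference of -0.04 (SE 0.17, adjusted p = 0.980) turned to 0.11 without experiment 4 and to 0.03 without experiment 3 or with quantile normalization.

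The switches of the complex were read next to it. Bckdk, the inhibitory kinase, stood at 6.02, 5.97, 6.09 and 6.28 with empty vector and at 6.20, 5.86, 5.94 and 6.00 with ATF4, a difference of -0.09 (SE 0.12, adjusted p = 0.916). Its difference was 0.18 in experiment 1 and -0.28 in experiment 4, with the others between, and the mean was -0.18 without experiment 1 and -0.03 without experiment 4. Ppm1k, the phosphatase that reactivates the complex, is not one of the 10 genes but had a larger difference than any of them. It stood at 4.23, 4.70, 4.37 and 4.79 with empty vector and at 3.88, 4.06, 4.31 and 4.28 with ATF4. Ppm1k was below its control in 4 of 4 experiments, by -0.40 (SE 0.13, adjusted p = 0.754), and by -0.35 without experiment 4. The groups overlapped, and the gene did not pass.

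Among the enzymes that hand on glutamate nitrogen, Glud1 had the largest difference. Glutamate dehydrogenase converts glutamate to ketoglutarate and ammonia. Glud1 stood at 5.83, 5.94, 6.22 and 6.44 with empty vector and at 5.85, 5.63, 5.96 and 5.46 with ATF4. Its mean difference of -0.38 (SE 0.17, adjusted p = 0.827) came from differences of 0.01, -0.31, -0.26 and -0.98. The lowest of them was that of experiment 4, and without it the difference was -0.18. The 95% interval of the Glud1 difference, not adjusted for the number of genes, reached from -0.77 to -0.0002.

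Gpt2, which makes alanine from pyruvate and glutamate in the mitochondrion, also depended on experiment 4. It stood at 5.49, 5.23, 5.35 and 6.24 with empty vector and at 5.78, 4.95, 5.09 and 5.45 with ATF4. The control muscle of experiment 4 was above all other arrays, and the groups otherwise overlapped. Experiment 1 gave 0.28, experiments 2 and 3 gave -0.28 and -0.27, and experiment 4 gave -0.80. The mean of these was -0.27 (SE 0.17, adjusted p = 0.849), or -0.09 without experiment 4 and -0.45 without experiment 1.

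Glul, glutamine synthetase, was the only enzyme below its control in 4 of 4 experiments, where 6.64% of all probe sets were. Among the 4189 brightest probe sets, to which Glul belongs, 502 were, so this pattern was more common at high signal. Glul stood at 8.99, 9.12, 8.93 and 9.87 with empty vector and at 8.93, 8.76, 8.81 and 9.67 with ATF4. Both muscles of experiment 4 were above all other arrays, so that the experiments differed more from each other (SD of pair means 0.42) than the legs did within them (SD of differences 0.13). The difference was -0.18 (SE 0.10, adjusted p = 0.846) and it was -0.18 without experiment 4 too.

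Got1, the cytosolic aspartate aminotransferase and the enzyme whose promoter window holds the composite letters, did not pass and had a mean difference below 0. It stood at 8.56, 8.41, 8.24 and 8.77 with empty vector and at 8.40, 8.06, 8.26 and 8.41 with ATF4. The groups overlapped, and the pair of experiment 3 was nearly level. The differences were -0.16, -0.35, 0.02 and -0.37, with a mean of -0.21 (SE 0.11, adjusted p = 0.846) that was -0.16 without experiment 4. The upper end of its 95% interval corresponds to a 1.03-fold rise. Asns, whose window holds the letters on the other strand, stood at 4.04, 4.29, 4.50 and 4.31 with empty vector and at 5.0, 5.66, 6.03 and 5.22 with ATF4. Every ATF4 array of Asns was above every control array, and the difference was 1.19 (SE 0.14, adjusted p = 0.0742).

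**Figure D2:**
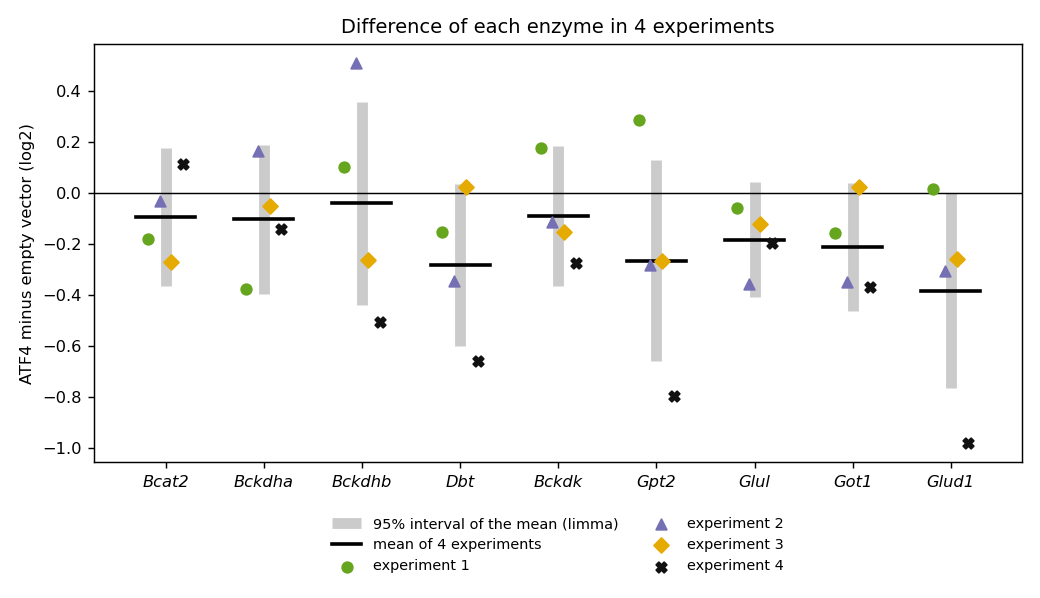
Difference between the muscles of each experiment (log2, ATF4 minus empty vector) for the 9 enzymes, with a marker per experiment, a black line at the mean of 4 experiments and a grey bar for limma's 95% interval of that mean. All 9 means are below 0, and experiment 4 gave the lowest value in 6 of them: Bckdhb, Dbt, Bckdk, Gpt2, Got1 and Glud1.

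The intervals describe the mean difference in whole muscle over all experiments, experiment 4 included. In that experiment the brightest probe sets had a median difference of -0.25. Without it the mean differences moved up to -0.09 for Gpt2, -0.18 for Glud1 and 0.11 for Bckdhb, and down to -0.16 for Bcat2. Intervals without experiment 4 are not given here. The share of fibres with plasmid is unknown, so the intervals do not limit a change within those fibres. Outside Glud1, the upper ends of the 95% intervals, taken gene by gene, corresponded to rises of 1.025-fold for Dbt, 1.03-fold for Glul and Got1, 1.09-fold for Gpt2, 1.13-fold for Bcat2 and Bckdk, 1.14-fold for Bckdha and 1.28-fold for Bckdhb. The lower ends corresponded to levels lower by 1.29-fold for Bcat2 and Bckdk up to 1.70-fold for Glud1. Asns, by the same measure, had an interval from 0.87 to 1.52 on the log2 scale.

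The negative medians were not equal over experiments, and one experiment had a general shift of bright probe sets. The median difference of the 9 enzymes was -0.06, -0.28, -0.15 and -0.37 in experiments 1 to 4, with 5, 7, 7 and 8 of the 9 below 0. In experiment 4 the brightest 25% of all probe sets had a median difference of -0.25 and the dimmest 25% one of 0.22, and 7 of the 9 enzymes are in that brightest 25%. The 2 arrays of experiment 4 also differed in their spread of values, SD 1.14 with ATF4 and 1.31 with empty vector. Both arrays of experiment 2 were narrower than these, at 1.11 and 1.12. The control array of experiment 4 had the lowest median of all arrays, 4.29. In experiments 1, 2 and 3 the brightest 25% had medians of 0.03, 0.007 and -0.03. Over all 4 experiments 64.7% of the brightest 25% was below 0, with a median of -0.06. Without experiment 4 that share was 49.9%, and 8 of the 9 enzymes were below 0, with a median of -0.16. With quantile normalization, which gives all arrays the same distribution, the median of the enzymes was -0.13 with all experiments. The part of the brightness shift in the enzyme differences was not tested, and the enzymes were chosen with earlier results of these data known.

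**Figure D3:**
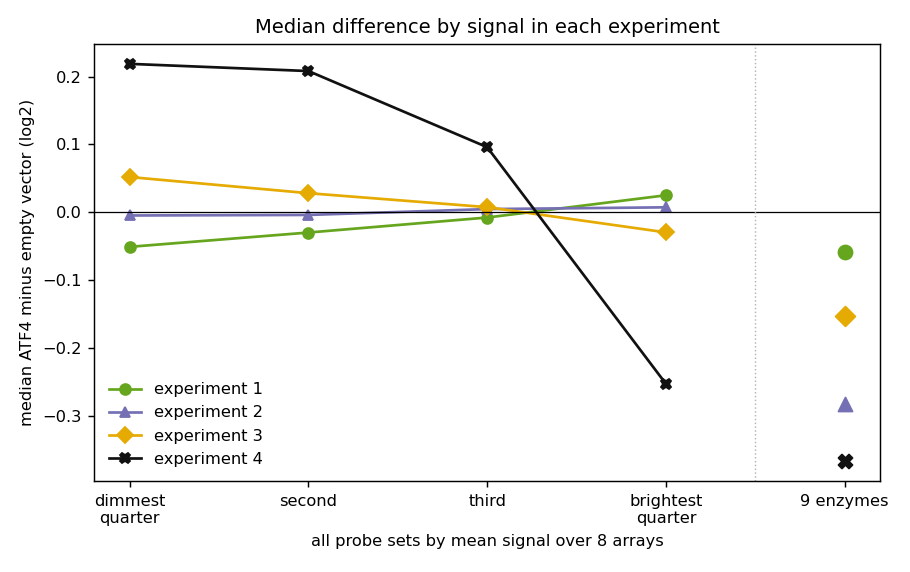
Median difference (log2, ATF4 minus empty vector) in each experiment for all probe sets, split into 4 equal parts by mean signal over the 8 arrays, and on the right for the 9 enzymes. Experiment 4 runs from 0.22 in the dimmest 25% to -0.25 in the brightest, the other experiments stay between -0.05 and 0.05, and the enzymes lie below the brightest 25% in every experiment.

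Other genes of branched-chain breakdown had a median of -0.20, and most of its size came from experiment 4. Besides the enzymes that follow the dehydrogenase, this list holds the E3 subunit Dld, the phosphatase Ppm1k and the mitochondrial carrier Slc25a44. Of its 19 measured members 15 were below 0 and 4 above, and 0 passed in either direction by limma; at an unadjusted p under 0.05, 1 was lower (Ppm1k, no enzyme of the later steps), where 2.77% of all probe sets were. Without experiment 4 the median was -0.05, with 14 of 19 still below 0, where 50.2% of all probe sets were. In experiments 1 to 4 the median was 0.03, -0.05, -0.07 and -0.52. In 4 of the 19 the ATF4 muscle was below its control in 4 of 4 experiments, where 6.64% of all probe sets were. Among the 4189 brightest probe sets 502 were. Acadsb, the dehydrogenase of the isoleucine branch, differed by -0.30 (SE 0.14, adjusted p = 0.846) and was below its control in 4 of 4 experiments, or by -0.17 without experiment 4. Acat1, the thiolase that ends isoleucine breakdown in the mitochondrion, differed by -0.28 (SE 0.13, adjusted p = 0.846), or by -0.18 without experiment 4.

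The partners of the transaminases were split. Of 11 measured members 7 were below 0 and 4 above, with a median of -0.03, 0 passed, and at an unadjusted p under 0.05, 2 were higher and 1 lower, against 3.23% and 2.77% of all probe sets. The 2 higher genes were the synthetic enzymes Asns and Psat1, the phosphoserine aminotransferase that also uses glutamate, which differed by 0.64 (SE 0.14, adjusted p = 0.517). The lower one was Adss1, adenylosuccinate synthase of the purine nucleotide cycle, which uses aspartate to release ammonia in muscle. Adss1 differed by -0.32 (SE 0.12, adjusted p = 0.796) and was below its control in 4 of 4 experiments. Bcat1, the cytosolic relative of Bcat2, differed by 0.22 (SE 0.17), or by 0.03 without experiment 4, and Gpt, the cytosolic relative of Gpt2, by -0.13 (SE 0.13), or by -0.09 without that experiment.

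Breakdown enzymes of other amino acids centred on 0. Of 16 measured members 10 were above 0 and 6 below, with a median of 0.05, or -0.006 without experiment 4, and 0 passed or reached an unadjusted p under 0.05. Oat, ornithine aminotransferase, differed by -0.20 (SE 0.11) and was below its control in 4 of 4 experiments, Kyat3, a kynurenine aminotransferase, by -0.21 (SE 0.14) and Cdo1, cysteine dioxygenase, by -0.27 (SE 0.19), or by -0.16 without experiment 4. Enzymes typical of liver, a tissue not sampled here, had 5 of 10 members on either side of 0 and a median of 0.01, or -0.04 without experiment 4, with 0 passing and 0 at an unadjusted p under 0.05. Their list means were 3.465 to 3.905 in control muscles and 3.527 to 3.854 in ATF4 muscles, below the array medians of 4.29 to 4.44. Values this low may be background. Fah of tyrosine breakdown differed by 0.18 (SE 0.12), Tat by -0.07 (SE 0.12) and Arg1 by 0.096 (SE 0.17), and without experiment 4 they stood at 0.09, -0.03 and -0.09.

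Regulators of muscle amino acid metabolism did not pass either. Of 9 measured members 7 were below 0 and 2 above, with a median of -0.04, or -0.008 without experiment 4, and 0 had an unadjusted p under 0.05. Klf15, a factor known to switch on Bcat2 and other genes of branched-chain breakdown in muscle, differed by 0.08 (SE 0.21, adjusted p = 0.962), with 0.61, -0.57, 0.55 and -0.26 in experiments 1 to 4. Ppargc1a, a coactivator of mitochondrial genes, differed by -0.15 (SE 0.12), and Nr3c1, the glucocorticoid receptor, by -0.10 (SE 0.14), and without experiment 4 they stood at -0.10 and -0.008.

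Established ATF4 targets of amino acid supply pointed the other way on the same arrays. Of 17 measured members 16 were above 0, with a median of 0.29, and the median was 0.30 without experiment 4. None passed by limma over all probe sets, 8 were higher at an unadjusted p under 0.05, where 3.23% of probe sets were, and 10 were above their control in 4 of 4 experiments, where 8.25% of probe sets were. In 4 of them, Asns, Slc7a5, Aldh1l2 and Shmt2, every ATF4 array was above every control array, as in 1.41% of probe sets. Slc7a5, a carrier of branched-chain and other large neutral amino acids, differed by 0.83 (SE 0.11, adjusted p = 0.131), and Slc7a3, a carrier of basic amino acids, by 0.60 (SE 0.12, adjusted p = 0.497). The list was written with earlier results of these data known, so its direction is not independent evidence. The difference between this list and the 9 enzymes was not tested.

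**Figure D4:**
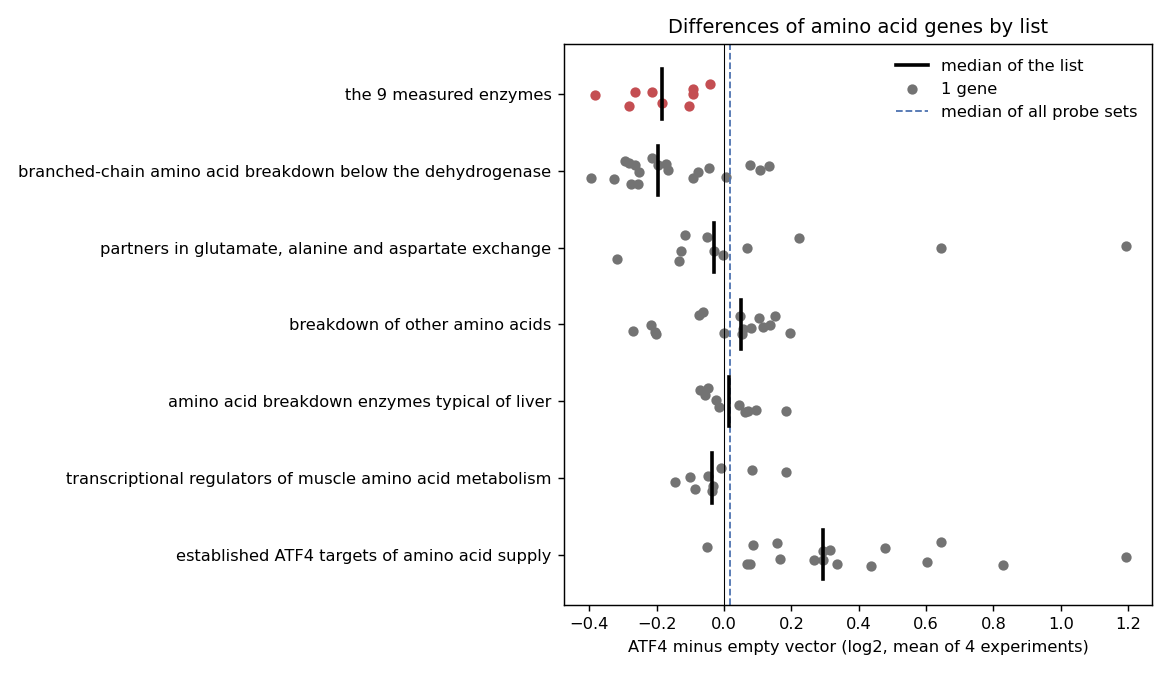
Mean difference over 4 experiments (log2, ATF4 minus empty vector) of each measured gene in 7 lists, with 1 point per gene, a black bar at each list's median and a dashed line at the median of all probe sets, 0.02; Asns and Psat1 are in 2 lists. The 9 enzymes lie between -0.38 and -0.04, and the ATF4 targets reach 1.19.

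Glutamine synthetase is also made by cells other than muscle fibres, so marker lists were read beside it. Muscle fibre markers had 11 of 13 measured members below 0 and a median of -0.04, with Tnnt3 and Tnnc2, fast troponins, at differences of -0.02 and -0.01. Macrophage markers had 11 of 11 above 0 and a median of 0.20, with list means of 6.22 to 7.26 in control muscles and 6.17 to 7.32 in ATF4 muscles, and Ctss and Tyrobp at 0.20 and 0.09. Their median was 0.47, 0.52, 0.04 and -0.07 in experiments 1 to 4, with 7 of 11 below 0 in experiment 4. Astrocyte markers, for the brain cell best known for Glul, had 2 of 4 on either side of 0, with list means of 3.97 to 4.25 in control muscles and 4.01 to 4.31 in ATF4 muscles, and Aqp4, which muscle fibres also make, and Gfap at -0.02 and 0.24. Endothelial markers had 5 of 8 below 0 (median -0.03, Cdh5 -0.03, Pecam1 -0.17), and adipocyte markers 4 of 7 above 0 (median 0.12, Fabp4 -0.15, Plin1 0.16). Fibroblast markers had 5 of 8 above 0 (median 0.10, Dcn -0.07, Dpt 0.32), and Schwann cell markers 2 of 4 on either side (median 0.003, Pmp22 -0.08, Sox10 0.08). Without experiment 4 the medians were -0.008 for muscle fibre, 0.29 for macrophage, -0.05 for astrocyte, -0.06 for endothelial, -0.01 for adipocyte, 0.009 for fibroblast and -0.05 for Schwann cell markers, and Gfap stood at 0.02, Aqp4 at -0.11, Plin1 at -0.01 and Sox10 at -0.06. No marker passed by limma. At an unadjusted p under 0.05, 2 of 11 macrophage (C1qb and Laptm5) and 1 of 8 fibroblast markers (Dpt) were higher. So was 1 of 4 Schwann cell markers (S100b), where 3.23% of all probe sets were. Lower were 1 of 8 endothelial (Tek) and 1 of 7 adipocyte markers (Adipoq), where 2.77% of all probe sets were. Of the 13 muscle fibre and 4 astrocyte markers 0 reached that p. The part of these cells in the levels of the 9 enzymes was not tested.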

How the data were processed

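The deposited values are log2 expression per probe set, made by the authors with RMA per the submitters' processing notes, which also name the human build hg18 with no role. Its version and settings are not stated there, so probe sets carry no coordinates here. Value ranges show the log2 scale. The platform annotation lists 1 gene for 14996 of 16755 probe sets, several for 1019 and none for 740. Genes are named from probe sets with 1 gene, by the one with the highest mean over 8 arrays. No detection calls were used, so a low level may be background, and the number of arrays limits the precision.

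All probe sets were fitted in limma 3.58.1 (R 4.3.3) with the experiment as a fixed block and a variance prior following the mean level. P-values were two-sided, adjusted by Benjamini-Hochberg over all probe sets, with a threshold of 0.05. The pairing comes from the series design. Paired arrays' deviations from their group means correlated by 0.07, 0.31, 0.55 and 0.05 in experiments 1 to 4. The p-values rest on the spread of the ATF4 minus empty vector differences over the 4 experiments, together with the variance prior. That spread may be partly technical. The fit was also run on simulated data with independent errors. The simulation did not hold the brightness shift of experiment 4, and its outcome is not used here.

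The members and lists were chosen with earlier results of these data known. All members are named, as are the 3 genes of smallest p of each amino acid list and the 2 brightest of each marker list. Bcat1, Gpt, Klf15, Shmt2, Aldh1l2 and the markers with an unadjusted p under 0.05 were added after their values were seen. Alternatives were no block, a random block (statmod 1.5.0), other priors, array weights, quantile normalization, median centring, a filter on the dimmest 25%, a gene's mean over probe sets and leaving out each experiment.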

Additional observations from a re-analysis of the deposited data

Results flagged for a closer look

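Dbt in the ATF4 muscle of experiment 4 stood at 4.80, away from 5.11 to 5.14 in the other 3 ATF4 muscles. The mean of the macrophage markers in the control muscle of experiment 3 was 7.26, away from 6.22 to 6.27 in the other 3 control muscles. These were 2 of 43 groups of 4 values examined, and chance gives about 2.1.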

How the results depend on the processing

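Of 117 differences (9 enzymes under 13 alternatives), 114 kept their direction and 0 passed the threshold, with adjusted p of 0.567 or more. The exceptions in direction were all Bckdhb, at 0.0348 with quantile normalization, 0.03 without experiment 3 and 0.11 without experiment 4. Bckdhb kept its direction without experiment 1, at -0.09, and without experiment 2, at -0.22. The median of the 9 enzymes ran from -0.23 without experiment 1 to -0.13 with quantile normalization, and it was -0.16 without experiment 4. Without the replicate block it was -0.18, as with it, and the block changed no call. Over all probe sets, 3 passed in the fit reported and without the block, 13 with a random block, 18 with array weights, 7 without the dimmest 25%, 2 with quantile normalization or without experiment 2, and 0 with median centring, without a trend in the prior, or without experiment 1, 3 or 4. Why these counts differ was not tested. Each of the 9 enzymes had 1 probe set, so averaging a gene's probe sets left their differences as they were.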
